A study of Mus musculus with 6 samples.

Results

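miR-219 and miR-338 are the microRNAs (miRNAs) most closely tied to the oligodendrocyte, the cell that makes myelin in the central nervous system. They were followed here through all 9 rows of the deposited mouse miRNA table that carry their names or the names of the miRNAs annotated on the opposite DNA strand. The rows were chosen by name, 9 of the 1482 in the table: mmu-miR-219a-5p, mmu-miR-219a-1-3p and mmu-miR-219a-2-3p, the opposite-strand mmu-miR-219b-5p and mmu-miR-219b-3p, mmu-miR-338-5p and mmu-miR-338-3p, and the opposite-strand mmu-miR-3065-5p and mmu-miR-3065-3p. The species prefix mmu (Mus musculus) is left off below except where a member's values begin. All 9 passed the filter on low counts, and so were among the 614 rows tested.

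The study prepared small RNA libraries from mouse spinal cord to profile RNAs after spinal cord injury (SCI). In the SCI-labelled group (3 libraries) the vertebral arch was opened at T10 (laminectomy) and the cord was moderately contused there with a 10 g weight dropped from 20 mm. In the control-labelled group (3 libraries) the laminectomy was done without a contusion, so both groups had undergone surgery. The mice were killed on day 2, and the tissue was a piece of cord of about 1 cm centred on T10. Strain, sex and age in weeks were not part of the labels. Nothing beyond the number of mice says that each library is 1 animal. The p-values below therefore set group differences against the variation between these libraries.

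An miRNA is cut from a hairpin whose 5′ arm and 3′ arm (5p and 3p) can each give a mature strand of about the same length, and the bases at the 5′ end, the seed, choose the messenger RNAs that the strand represses. In mouse and rat brain, miR-219 and miR-338 are switched on as oligodendrocyte precursors leave the cell cycle, and they repress genes that keep precursors dividing, among them Pdgfra, the platelet-derived growth factor receptor, and the transcription factors Sox6 and Hes5. Mice that lack miR-219 make too little myelin. Bulk cord also holds neurons, astrocytes, microglia, vessels and blood, and in such RNA fewer cells of a type and less RNA per cell cannot be told apart.

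The mature strands are shown first because the members differ in every seed and because several are close to the reverse complement of another. RefSeq (GRCm38.p6) gave a sequence for 7 of the 9 members. Capitals mark the seed, bases 2 to 8 from the 5′ end.
miR-219a-5p: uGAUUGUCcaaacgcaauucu
miR-219b-3p: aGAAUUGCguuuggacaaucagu
miR-219b-5p: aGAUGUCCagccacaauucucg
miR-219a-1-3p: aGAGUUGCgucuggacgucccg
miR-338-5p: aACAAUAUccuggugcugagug
miR-338-3p: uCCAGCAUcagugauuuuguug
miR-3065-5p: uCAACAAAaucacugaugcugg
The 7 strands carry 7 distinct seeds, and none of the other mature miRNAs among the 1679 names in the RefSeq table has one of them. miR-219a-5p is encoded at 2 places on the minus strand, chr2:29845689-29845709 and chr17:34025052-34025072. miR-219b-3p is read from the plus strand at chr2:29845689-29845711, over the same bases as the first copy of miR-219a-5p. miR-338-3p lies at chr11:120014781-120014802 on the minus strand, and miR-3065-5p at chr11:120014780-120014801 on the plus strand. miR-219a-2-3p and miR-3065-3p are named without a sequence.

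The hairpins are shown because they overlap in pairs on opposite strands, which bears on how reads were shared between the rows. Capitals mark mature arms; in Mir219a-2 they mark the bases opposite the arms of Mir219b.
Mir219a-2: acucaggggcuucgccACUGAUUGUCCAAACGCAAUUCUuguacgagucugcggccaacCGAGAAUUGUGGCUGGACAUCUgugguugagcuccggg
Mir219b: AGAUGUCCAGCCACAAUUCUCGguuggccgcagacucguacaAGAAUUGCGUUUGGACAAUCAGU
Mir219a-1: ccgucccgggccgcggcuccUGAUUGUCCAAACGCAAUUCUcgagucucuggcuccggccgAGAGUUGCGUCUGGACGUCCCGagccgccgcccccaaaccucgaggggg
Mir219c: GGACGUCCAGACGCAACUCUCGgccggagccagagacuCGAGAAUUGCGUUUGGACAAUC
Mir338: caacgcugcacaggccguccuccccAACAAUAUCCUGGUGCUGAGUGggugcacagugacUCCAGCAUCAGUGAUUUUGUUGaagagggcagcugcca
Mir219a-2 (chr2:29845631-29845727, minus strand) contains the whole of Mir219b (chr2:29845647-29845711, plus strand). The 65 shared bases lie outside any annotated gene in GENCODE M21 other than miRNA genes. The nearest protein-coding gene, Urm1, is 629 bases from Mir219a-2. Mir219a-1 (chr17:34024983-34025092, minus strand) overlaps the long noncoding RNA gene Gm26940, 303 bases from Ring1, and shares 60 bases with Mir219c (chr17:34025012-34025071, plus strand). Mir338 (chr11:120014765-120014862, minus strand) lies in an intron of Aatk, which encodes a kinase of the nervous system and runs on the same strand, between exons that end at 120013734 and start at 120015392. Mir338 shares 87 bases with Mir3065 (chr11:120014767-120014853, plus strand).

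Total counts were between 7100472 and 8889977 in the SCI-labelled libraries and between 5568491 and 7360149 in the control-labelled libraries. In the table the SCI-labelled libraries sit under headers that start with Normal, the control-labelled ones under headers that start with Control, and the injury markers went against the labels. miR-21a-5p, which rises in injured tissue, was lower in the SCI-labelled libraries (log2 change -3.06, edgeR adjusted p = 7.0e-05). So were 5 of 5 leukocyte miRNAs, which include both arms of miR-142a, where 23.1% of the 614 rows were lower. Levels are given as CPM, counts scaled to a common library total that was adjusted by the trimmed mean of M-values (TMM). The leukocyte miRNAs summed to 328 to 450 CPM in SCI-labelled libraries and 1778 to 2983 CPM in control-labelled libraries. The summed level of the 5 neuronal miRNAs was 31900 to 37554 CPM in SCI-labelled libraries and 12526 to 15550 CPM in control-labelled libraries. By the same test 3 of 5 were higher, where 16.3% of the 614 rows were. Most of the sum was miR-218-5p and miR-128-3p. miR-124-3p had the opposite sign without passing (log2 change -0.52, edgeR adjusted p = 0.339). miR-137-3p did not pass either (0.79, edgeR adjusted p = 0.173). The groups are therefore named by their labels throughout. Whether the labels or headers of the groups were exchanged was not tested; if they were, the sign of every change given here would turn. Control-labelled library 3 stood apart. The 4 skeletal muscle miRNAs summed to 9817 to 20423 CPM in the SCI-labelled libraries and to 8283, 11916 and 37774 CPM in control-labelled libraries 1, 2 and 3. No listed marker was at 0 in every library.

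The 9 rows held at most 6 distinct signals, because 3 opposite-strand rows repeated the counts of a partner almost exactly. miR-219b-3p had 1105, 574 and 857 counts in SCI-labelled libraries 1, 2 and 3, where miR-219a-5p had 1124, 587 and 873. In control-labelled libraries 1, 2 and 3, miR-219b-3p had 425, 419 and 2808 counts and miR-219a-5p had 435, 432 and 2841. The opposite-strand row was thus at 97.0% to 98.8% of its partner in every library, 10 to 33 counts below it. miR-3065-3p stood at 97.7% to 98.8% of miR-338-5p, 75 to 160 counts below it. miR-3065-5p and miR-338-3p had identical counts except in control-labelled library 1, where they differed by 1 count.

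Not every overlapping pair was of this kind. miR-219b-5p held 12.6% to 16.8% of the counts of miR-219a-2-3p, the other arm of the same hairpins. Whether its row holds some of the reads of miR-219a-2-3p was not tested. miR-219c-3p, opposite miR-219a-5p on chromosome 17, held 0% to 0.170% of its counts, and miR-219a-5p extends 1 base past the end of the Mir219c hairpin. miR-219c-5p held 14.5% to 41.2% of the counts of miR-219a-1-3p, which extends 2 bases past that hairpin.

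Across the table, 24 opposite-strand pairs had a RefSeq position for both mature strands, the miR-219a-5p and miR-338-3p pairs among them, and 20 of these had a mean of at least 20 counts in the higher row. In 13 of the 20 the higher row lay wholly inside the hairpin of the lower row, and 8 of these 13 had counts within 5% of each other in every library. In the other 7 the higher row reached outside that hairpin, and 0 of 7 had such near-equal counts. The closest of the 7 had its lower row at 87.5% to 100% of the higher, at mean counts of only 21.0 and 21.7. The sources used here do not say how the authors' counting treated the strand. Reads of miR-219a-5p and miR-219b-3p, of miR-338-5p and miR-3065-3p, and of miR-338-3p and miR-3065-5p cannot be told apart in these counts.

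**Figure D1:**
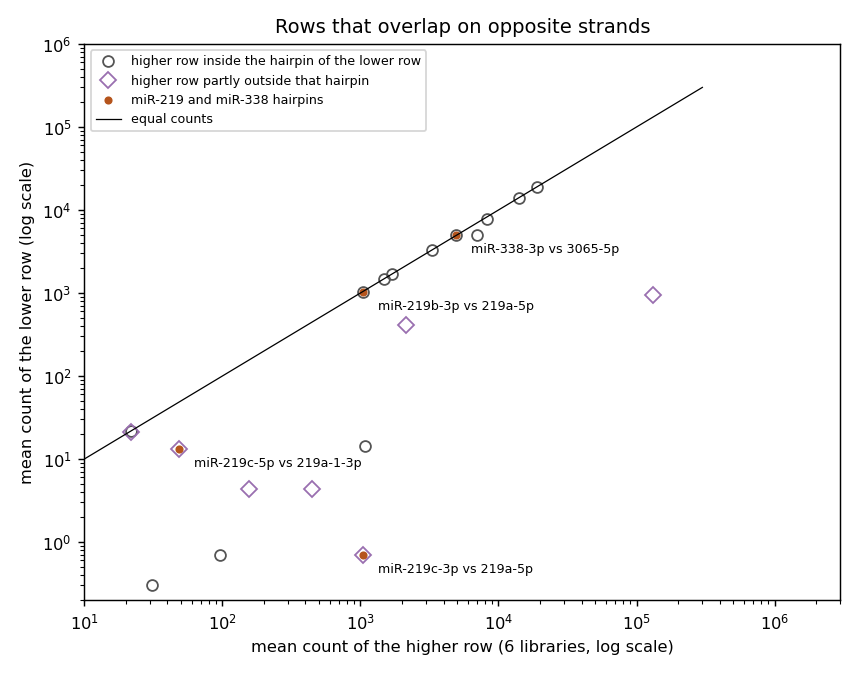
Mean count over the 6 libraries of the lower row against that of the higher row (log axes) for opposite-strand pairs with a RefSeq position for both rows; circles are pairs whose higher row lies inside the hairpin of the lower row, diamonds pairs whose higher row reaches outside it, filled points the miR-219 and miR-338 pairs. The miR-338-3p and miR-219a-5p pairs lie on the line of equal counts, and the pairs of Mir219c lie below it.

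The members together made up 1.28% to 1.46% of all counts in the SCI-labelled libraries and 1.23% to 1.55% in the control-labelled libraries. With each near-equal pair taken once, the 6 rows left made up 1.14% to 1.27% in SCI-labelled libraries and 1.10% to 1.37% in control-labelled libraries. miR-219a-2-3p was by far the most abundant, with 73.6% to 78.0% of these 6 rows in SCI-labelled libraries and 68.6% to 77.5% in control-labelled libraries. CPM has no term for length, and the mature strands differ in length by at most 2 bases where a sequence was given.

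mmu-miR-219a-2-3p, the 3p arm of the chromosome 2 copy, stood at 9116, 9811 and 8757 CPM in SCI-labelled libraries 1, 2 and 3 and at 9008, 10273 and 7013 CPM in control-labelled libraries 1, 2 and 3. The control-labelled libraries spanned the SCI-labelled ones, with the highest and the lowest value both among them. The means were 9228 ± 536 CPM in SCI-labelled and 8765 ± 1644 CPM in control-labelled libraries (SD, n = 3 each), a log2 change of 0.07 with a standard error of 0.19 (edgeR quasi-likelihood test, adjusted p = 0.778). Its 95% confidence interval ran from -0.36 to 0.51, or from 0.779-fold to 1.42-fold. By mean level it ranked 24 of the 614 rows tested.

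mmu-miR-219b-5p, opposite that arm, had a lower level. It stood at 1398, 1240 and 1336 CPM in SCI-labelled libraries and at 1220, 1726 and 1082 CPM in control-labelled libraries. The groups overlapped, with control-labelled library 2 highest and control-labelled library 3 lowest. The log2 change was -0.02 with a standard error of 0.21 (interval -0.51 to 0.47, edgeR adjusted p = 0.948).

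mmu-miR-338-5p stood at 868, 832 and 886 CPM in SCI-labelled libraries and at 761, 1180 and 1091 CPM in control-labelled libraries. Control-labelled libraries 2 and 3 lay above all SCI-labelled libraries and control-labelled library 1 lay below them. The log2 change was -0.23 with a standard error of 0.21 (interval -0.71 to 0.25, edgeR adjusted p = 0.420). Its opposite-strand row miR-3065-3p gave -0.22 (edgeR adjusted p = 0.447) from nearly the same counts.

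mmu-miR-338-3p, the arm best known from work on oligodendrocytes, stood at 861, 596 and 726 CPM in SCI-labelled libraries and at 552, 571 and 701 CPM in control-labelled libraries. The lower 2 control-labelled libraries lay under every SCI-labelled library and control-labelled library 3 lay among them. The log2 change was 0.26 with a standard error of 0.21 (interval -0.22 to 0.74, edgeR adjusted p = 0.359), and miR-3065-5p gave the same 0.26. As a fold the interval ran from 0.859 to 1.67.

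mmu-miR-219a-5p, the arm that targets Pdgfra, stood at 139, 91.0 and 98.9 CPM in SCI-labelled libraries and at 69.7, 78.2 and 335 CPM in control-labelled libraries. Control-labelled library 3 was far above every other library, and the other control-labelled libraries were the lowest of the 6. The means were 110 ± 25.9 CPM in SCI-labelled and 161 ± 151 CPM in control-labelled libraries (SD, n = 3 each). The log2 change was -0.55 with a standard error of 0.56 (interval -1.84 to 0.73, edgeR adjusted p = 0.472), and miR-219b-3p gave -0.56 from nearly the same counts.

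mmu-miR-219a-1-3p, the 3p arm of the chromosome 17 copy and the one member annotated at that copy alone, was the least abundant member, at rank 438 of the 614 rows by mean level. It had 55, 48 and 50 counts in SCI-labelled libraries and 51, 52 and 36 counts in control-labelled libraries, which is 5.66 to 7.44 CPM in SCI-labelled and 4.24 to 9.41 CPM in control-labelled libraries. The groups overlapped. The log2 change was -0.12 with a standard error of 0.33 (interval -0.88 to 0.64, edgeR adjusted p = 0.783).

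**Figure D2:**
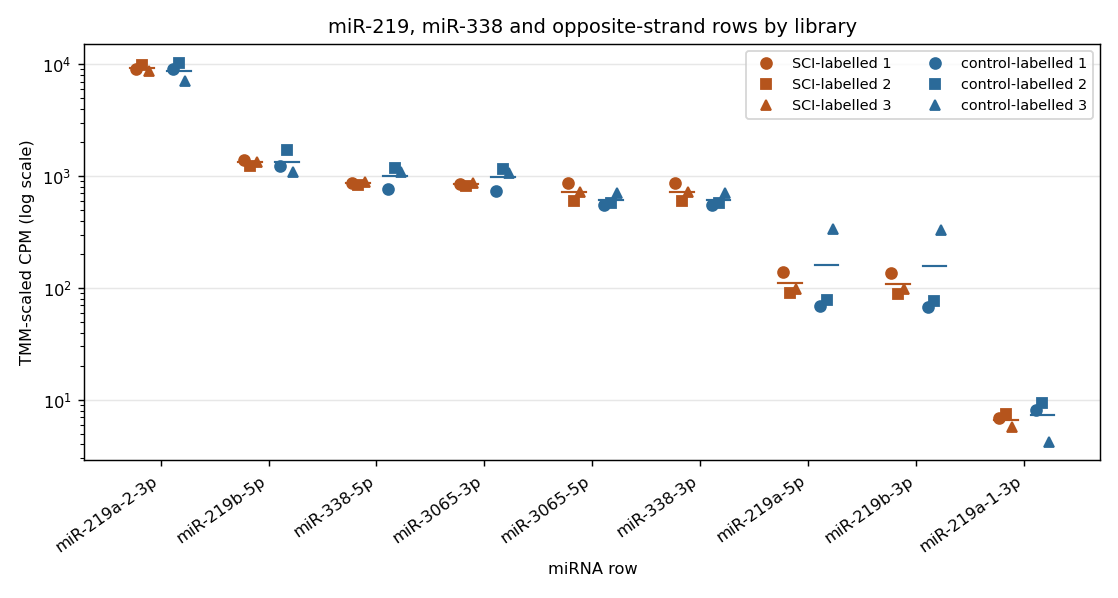
TMM-scaled CPM of each member in the 3 SCI-labelled libraries (orange) and the 3 control-labelled libraries (blue) on a log axis; the shape of a point gives the library number and the bar is the group mean. The groups overlap in every row, and in miR-219a-5p control-labelled library 3 stands at 335 CPM, above the 69.7 to 139 CPM of the other libraries.

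None of the 9 members passed the test, 0 of 9 in edgeR, where 39.4% of the 614 rows did (16.3% in the higher and 23.1% in the lower direction). At an unadjusted p under 0.05 the count was also 0 of 9, where 46.4% of all rows passed. DESeq2 called 0 of 9 against 40.2% of rows, and limma voom with quality weights 0 of 9 against 46.6% of rows. The groups did not overlap for 51.3% of rows and for 0 of 9 members. The median log2 change was -0.12 over the 9 members and -0.07 over all rows tested. Since the 9 rows hold at most 6 signals, these counts rest on at most 6 measurements. A miss of the threshold does not show that the levels were equal, and the intervals above give the changes that remain possible.

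**Figure D3:**
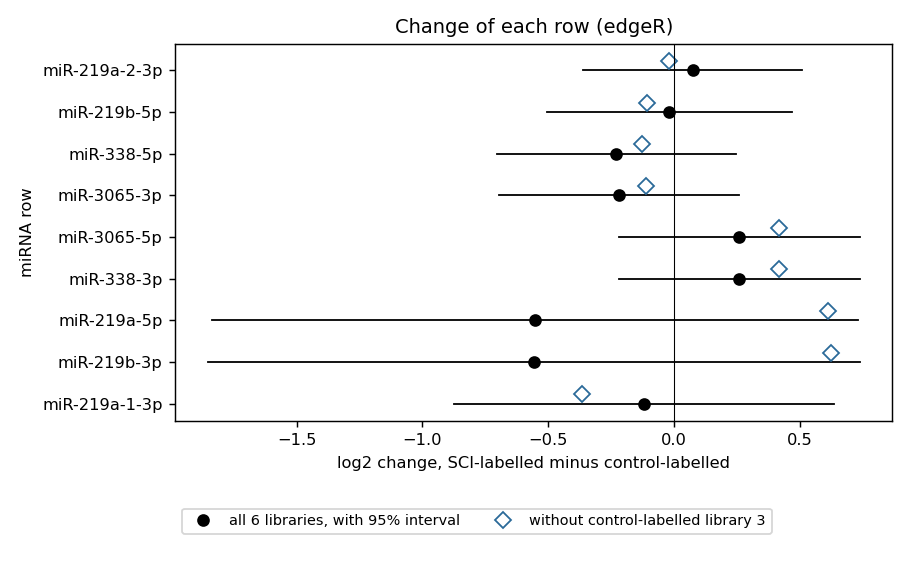
Log2 change of the 9 members, SCI-labelled minus control-labelled, from edgeR; filled circles with bars are the values over all 6 libraries with 95% confidence intervals, open diamonds the values without control-labelled library 3. All intervals over the 6 libraries include 0, and the diamonds of miR-219a-5p and miR-219b-3p lie at 0.61 and 0.63, against -0.55 and -0.56 for their circles.

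Control-labelled library 3 decided the value of miR-219a-5p and miR-219b-3p. Without it, miR-219a-5p was 1.53-fold higher in the SCI-labelled libraries (log2 change 0.61, edgeR adjusted p = 0.0405) and miR-219b-3p gave 0.63 (adjusted p = 0.0384), so that 2 of 9 members were called, both from nearly the same counts. In that fit 52.2% of 634 rows were called, and 24% of the 634 were called higher. miR-338-3p then had a log2 change of 0.42 (edgeR adjusted p = 0.1005), miR-338-5p -0.13 and miR-219a-2-3p -0.02.

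Control-labelled library 3 was then set against control-labelled libraries 1 and 2. Of the 614 rows, 7 were at least 2 log2 units higher in it and 5 at least 2 lower. The 7 higher rows, named after their values were seen, were miR-133a-5p, miR-133a-3p, miR-133b-3p, miR-206-3p and miR-1a-1-5p, which are made in skeletal muscle, with miR-219b-3p at rank 6 (2.20) and miR-219a-5p at rank 7 (2.18). The quartiles over all rows were -0.50 and 0.49. The other members did not share the shift: miR-338-3p ranked 192 (0.32), miR-338-5p 231 (0.20), miR-219b-5p 430 (-0.42), miR-219a-2-3p 443 (-0.46) and miR-219a-1-3p 558 (-1.002). Among the 5 neuronal miRNAs the difference of library 3 was 1.54 for miR-124-3p and 1.47 for miR-137-3p, but 0.04 for miR-218-5p, -0.24 for miR-129-5p and -0.32 for miR-128-3p, and their sum in library 3 (14331 CPM) lay between those of control-labelled libraries 1 and 2 (15550 and 12526 CPM). The red cell miRNAs summed to 32718, 26283 and 9426 CPM in control-labelled libraries 1, 2 and 3. The endothelial miRNAs summed to 28514, 21136 and 12211 CPM, so both sums were lowest in library 3. The endothelial sum was nearly all miR-126a-3p (28184, 20905 and 11750 CPM). The other endothelial row, miR-126a-5p, was instead highest in library 3 (330, 231 and 461 CPM). The part of any other tissue in the value of miR-219a-5p was not tested.

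**Figure D4:**
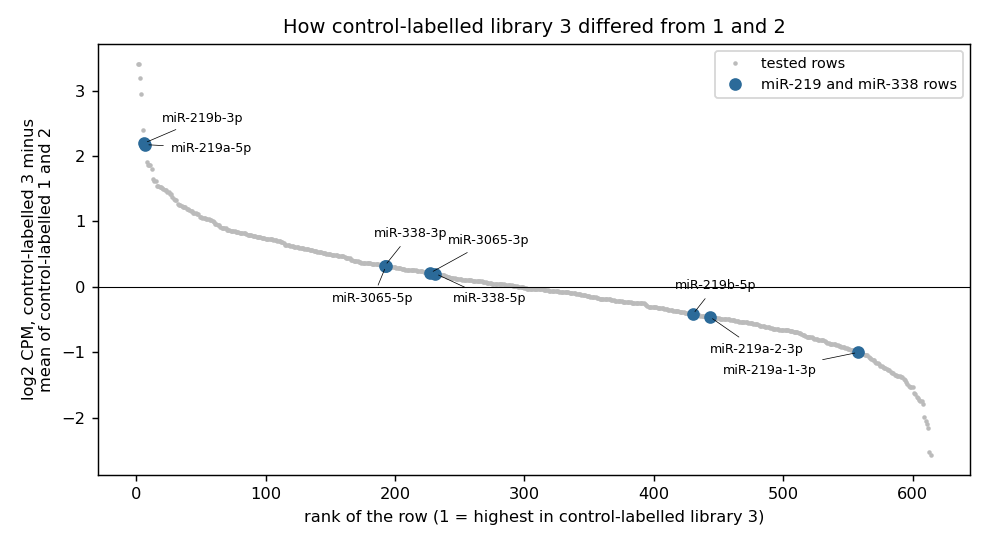
Log2 difference of control-labelled library 3 from the mean of control-labelled libraries 1 and 2 for the 614 rows tested, in rank order, with the members marked. miR-219b-3p and miR-219a-5p sit at ranks 6 and 7 and the remaining members between ranks 192 and 558.

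The arms of one hairpin were then set against each other, since both come from 1 precursor and their ratio does not depend on the scaling of the library. miR-219a-2-3p exceeded miR-219a-5p by 65.5, 108 and 88.5 times in SCI-labelled libraries and by 129, 131 and 21.0 times in control-labelled libraries. The SCI-labelled ratios lay between the extremes of the control-labelled ones, and library 3 was again the one apart. The mean log2 ratio was 6.42 in SCI-labelled and 6.15 in control-labelled libraries, a difference of 0.27 (exact two-sided permutation test, p = 1, adjusted p = 1 over 6 ratios), and -0.61 without control-labelled library 3. miR-219a-5p also draws on the chromosome 17 copy, so this ratio is not that of a single hairpin.

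miR-338-3p to miR-338-5p was 0.992, 0.717 and 0.820 in SCI-labelled libraries and 0.726, 0.484 and 0.642 in control-labelled libraries. The ranges overlapped by 1 library on each side. The mean log2 ratio was -0.26 ± 0.24 in SCI-labelled and -0.72 ± 0.30 in control-labelled libraries (SD, n = 3 each), a difference of 0.46 (exact two-sided permutation p = 0.2, adjusted p = 0.6). With 3 libraries against 3 the smallest p this test can give is 0.1.

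The ratio of miR-3065-3p to miR-338-5p was 0.986 to 0.988 in SCI-labelled libraries and 0.977 to 0.983 in control-labelled libraries. These groups did not overlap, but the difference was 0.01 on the log2 scale (exact permutation p = 0.1, adjusted p = 0.6). The ratio of miR-219b-5p to miR-219a-2-3p differed by -0.08 (exact permutation p = 0.5, adjusted p = 1).

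edgeR's test of arm usage sets each arm against the whole of its hairpin, with the copies of miR-219a taken as 1. Most counts of that unit are miR-219a-2-3p, so the value of this arm lies near 0 by design. Opposite-strand hairpins were tested on their own, though miR-219b-3p and the miR-3065 rows repeat a partner's counts. By this test 0 of 9 member arms were called, where 8.37% of the 418 arms tested were. At an unadjusted p under 0.05 the count was also 0 of 9, where 17.7% of arms passed. miR-219a-5p gave -0.43 (adjusted p = 0.642). The relative log2 change was 0.20 for miR-338-3p and -0.14 for miR-338-5p. Without control-labelled library 3, miR-219b-3p gave 0.48 (adjusted p = 0.0434) and miR-219a-5p 0.44 (adjusted p = 0.0530), so 1 of 9 member arms was called, against 17% of arms in that fit.

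The balance between arms was compared in the same way. Among 171 hairpins with both arms measured, the shift of the 3p to 5p balance between library 3 and control-labelled libraries 1 and 2 had a median size of 0.51 log2 units, and 7 hairpins shifted by over 2. Mir219a-1 ranked 1 by the size of the shift (-3.22), the unrelated miR-151 hairpin ranked 2 (-2.87), Mir219a-2 ranked 3 (-2.63) and Mir219b ranked 4 (2.62). The 3 miR-219 ranks rest mostly on 1 high value, that of miR-219a-5p and its opposite-strand row in library 3 (2.18 and 2.20). The other arm of each hairpin was lower in library 3. The differences were -1.002 for miR-219a-1-3p, -0.46 for miR-219a-2-3p and -0.42 for miR-219b-5p. The 3p row of Mir219a-1 had only 36 to 55 counts in a library. Mir338 ranked 153 with a shift of 0.12.

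**Figure D5:**
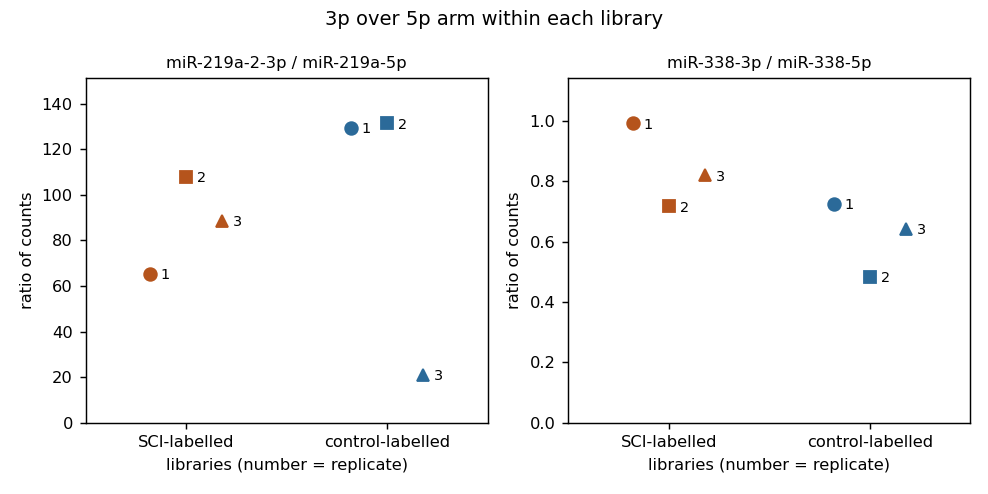
Ratio between the arms of miR-219a (miR-219a-2-3p over miR-219a-5p) and of miR-338 (3p over 5p) in each SCI-labelled and control-labelled library (linear axes from 0; points are libraries, numbered). The miR-219a ratio is 65.5 to 108 in the SCI-labelled libraries, 129 and 131 in control-labelled libraries 1 and 2 and 21.0 in control-labelled library 3, and the miR-338 ratios of the groups overlap.

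The tested miRNAs whose profile over the 6 libraries was nearest to each abundant member were found by the root mean square distance between log2 CPM values centred on their mean, among 268 rows with a mean of at least 50 CPM. The nearest to miR-219a-2-3p were miR-30c-2-3p (0.10), miR-380-5p (0.11), miR-382-5p (0.12), miR-219b-5p (0.14) and miR-22-5p (0.14). For miR-219b-5p they were miR-330-3p (0.09), miR-219a-2-3p, miR-30c-2-3p, miR-382-5p and miR-196a-5p (0.15). The nearest to miR-338-5p after its opposite-strand row were miR-125b-5p (0.10), let-7b-5p (0.13), miR-744-5p (0.15) and miR-181b-5p (0.16). None of these rows was called by edgeR, which is likely from the way they were chosen, since the members they lie near were not called. A small distance over 6 libraries of 1 tissue is a description of these profiles.

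The 5p and 3p arms of miR-338 were not among each other's 5 nearest rows, and neither were miR-219a-2-3p and miR-219a-5p. In a comparison chosen after their values were seen, miR-219a-5p was nearest to miR-29c-3p (0.27), miR-124-3p (0.29) and miR-326-3p (0.30) after its own opposite-strand row. These 3 rows were, like it, highest in control-labelled library 3, which largely follows from choosing them by likeness to its profile. After its own opposite-strand row, miR-338-3p was nearest to miR-125b-2-3p (0.12) and miR-181a-1-3p (0.14).

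A list of 16 other miRNAs described in oligodendrocytes or in myelination gave a mixed picture, with 15 tested. Of the 15, 2 were higher in the SCI-labelled libraries (16.3% of all rows were), 9 were lower (23.1% of all rows were) and 4 did not pass. The median log2 change was -0.85, against -0.07 over all rows. Without control-labelled library 3 the counts were 4 higher and 9 lower, where 24% of rows were called higher and 28.2% lower. Summed over the list, the level was 123797 to 133643 CPM in SCI-labelled libraries and 91955 to 116423 CPM in control-labelled libraries, most of it miR-9-5p.

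The 2 higher members were miR-204-5p and miR-9-5p. miR-204-5p, known in oligodendrocytes and in the choroid plexus, averaged 1750 ± 77.4 CPM in SCI-labelled and 716 ± 150 CPM in control-labelled libraries (SD, n = 3 each; log2 change 1.29, edgeR adjusted p = 0.00167). miR-9-5p, which is abundant in neural progenitors and astrocytes, averaged 96125 ± 5733 CPM in SCI-labelled and 64270 ± 13997 CPM in control-labelled libraries (log2 change 0.58, edgeR adjusted p = 0.0455). miR-7a-5p, which is abundant in neurons and neuroendocrine cells, did not pass, at 15009 ± 1913 CPM in SCI-labelled and 11100 ± 1028 CPM in control-labelled libraries (edgeR adjusted p = 0.0843).

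The lower members included 3 miRNAs of the miR-17-92 cluster, which promotes cell division: miR-19b-3p (log2 change -3.61), miR-20a-5p (-2.71) and miR-17-5p (-2.55), with edgeR adjusted p-values of 7.1e-05 or less. miR-19b-3p averaged 26.8 ± 3.60 CPM in SCI-labelled and 327 ± 15.8 CPM in control-labelled libraries. miR-23a-3p (-1.86) and miR-27a-3p (-0.85), which come from 1 cluster, and miR-27b-3p (-0.54) were lower as well. The remaining 3 were miR-146a-5p (-0.86), a brake on innate immune signalling, miR-125a-3p (-0.92) and miR-212-3p (-0.91). Most of these miRNAs are also made by blood cells, vessels or dividing cells, and leukocyte and red cell miRNAs moved the same way. The 4 red cell miRNAs, all called lower by edgeR, summed to 2481 to 5231 CPM in SCI-labelled and 9426 to 32718 CPM in control-labelled libraries. The part of those cells in the list's change was not tested.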

How the data were processed

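Counts and TPM per miRNA were deposited by the authors in 1 table, with whole-number counts not normalized. CPM computed from the column sums matched the deposited TPM to 2.74e-05; length does not enter. Bowtie and mm10 come from the submitters' processing notes. Its version, the miRBase release, and the handling of mismatches, strand and multiple matches are not stated in those notes. Sample descriptions name each column.

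The tests used edgeR 4.0.16 under R 4.3.3: filterByExpr (minimum count 10), TMM, the robust quasi-likelihood test between the groups without covariates, and Benjamini-Hochberg adjustment over 614 rows at 0.05. The biological coefficient of variation was 26.7%. Arm usage came from diffSpliceDGE. Ratios of counts (plus 0.5) were compared by exact permutation tests over libraries. Hairpin and mature sequences are from RefSeq on GRCm38.p6, and gene context from GENCODE M21, whose assembly is the same as mm10. The edgeR test between the groups and the test of arm usage were also run on simulated counts, and the other steps were not.

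The rule for named miRNAs took the 9 members, the 5 rows nearest in profile to each of the 3 most abundant members, and those of the myelination list that passed the test or were its 3 most abundant. Named outside it are the miR-219c rows that overlap members, listed markers of other cells and of injury, and, after their values were seen, the rows and the hairpin that differed most in control-labelled library 3 and the rows nearest to miR-219a-5p and miR-338-3p. The members, lists and rules were chosen with earlier results of these data known; the muscle, red cell, leukocyte, neuron and endothelium lists hold markers of other cells in the tissue. Of the endothelial list 0 of 2 were called (summed level 16412 to 18789 CPM in SCI-labelled and 12211 to 28514 CPM in control-labelled libraries), and of the muscle list 0 of 4. Alternatives were RLE, library total and upper quartile scaling, no filter, DESeq2 1.42.0, limma 3.58.1 (voom with quality weights; log2 of TPM plus 1, 0.1 or 10), the replicate number as a block, marker miRNAs left out, each library left out and, added after seeing the data, near-equal rows taken as 1. All pairs of libraries differed by more than sampling noise.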

Additional observations from a re-analysis of the deposited data

How the results depend on the processing

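No member was called under any alternative that kept all 6 libraries. Leaving out 1 library at a time gave 0 to 2 members called, 141 to 331 rows called (54 to 152 higher and 87 to 179 lower), 12 to 73 arms called and 0 to 1 member arms. The 331 rows, 152 higher, came without control-labelled library 3, and the lowest counts without SCI-labelled library 3 (141 rows, 54 higher, 87 lower); without SCI-labelled library 1 there were 160 rows, 63 of them higher. The causes were not tested.

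The sign of miR-219a-5p and miR-219b-3p depended on control-labelled library 3: with libraries left out, the log2 change ran from -0.90 to 0.61 and from -0.91 to 0.63, and arm usage from -0.75 to 0.44 and from -0.68 to 0.48. voom with quality weights gave 0.27 and 0.28 (adjusted p = 0.537 for miR-219a-5p). Members near 0 also changed sign: miR-219a-2-3p was -0.014 under voom and -0.021 to 0.20 with libraries left out, miR-219b-5p was 0.082 under upper quartile scaling, 0.030 without the filter and -0.11 to 0.19 with libraries left out, and miR-219a-1-3p ran from -0.37 to 0.10. Arm usage ran from -0.0040 to 0.013 for miR-219a-2-3p and from -0.030 to 0.082 for miR-219b-5p. miR-338-3p kept its sign (0.15 to 0.45), as did miR-338-5p (-0.33 to -0.12). Upper quartile scaling moved the median of all rows by 0.11 and voom by 0.12.

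Deviations from the group mean gave correlations of -0.26, 0.17 and -0.18 between same-numbered libraries of the groups. Between differently numbered ones they ran from -0.22 to 0.33. The numbers are those of the sample titles, which differ from those in the control-labelled headers. With so few libraries these values cannot decide whether any libraries were paired. With the replicate number as a block, 0 members, 190 rows and 26 arms were called, with -0.16 for miR-219a-5p and 0.0092 for miR-219b-5p. Intervals cover the spread between 3 libraries a group. miR-219a-1-3p, at 36 to 55 counts, is also limited by counting.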
